A study of Mus musculus with 6 samples.

Results

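The 10 genes of the Igf1 axis and of the Igf binding proteins were followed across 3 immortalized mouse embryonic fibroblast (iMEF) lines: the ligand Igf1, the receptors Igf1r and Insr, the adaptor Irs1, and the binding proteins Igfbp2, Igfbp3, Igfbp4, Igfbp5, Igfbp6 and Igfbp7. They were taken by gene symbol, 1 row each, from an RNA-seq table of 22369 genes. The lines were Nrdc-/-WT iMEF (Nrdc-/- iMEF into which a lentivirus had brought back wild-type Nrdc), Nrdc-/- iMEF and Nrdc+/+ iMEF, with 2 libraries of each. All came from C57BL/6 mice and were grown in DMEM with 10% fetal bovine serum without synchronization, and polyadenylated RNA was sequenced on Ion Proton sequencers. Each genotype was represented by a single immortalized line, so that line and genotype cannot be told apart. The number of clones is not stated. Since the samples used here include no library of cells with an empty virus, the lentiviral infection and the returned Nrdc cannot be told apart. The methods call the replicates biological, of cells a few passages past infection, but no label says that the libraries of one line were separate cultures, and p-values may then measure technical spread only. In such bulk samples fewer expressing cells and less RNA per cell cannot be told apart.

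Igf1 is a secreted growth factor that acts through the tyrosine kinase Igf1r. Insr, the insulin receptor, is the close relative of Igf1r, and both phosphorylate Irs1, which then recruits PI3K to start the Akt and mTOR cascade. Outside the cell most Igf is held by Igf binding proteins, which govern how much of it reaches the receptor and which proteases can cut to set it free. Igfbp7 is a distant relation with weak affinity for Igf. Fibroblasts in culture are a well known source of these secreted proteins, and serum supplies Igf of its own to the medium. Nrdc (nardilysin) is a metallopeptidase that is also found in the nucleus on chromatin.

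The libraries held 16385565 to 19764315 reads over the listed genes, and the paired libraries of each line differed by more than sampling noise, most in Nrdc+/+ iMEF. Nrdc mRNA, listed as Nrd1, was 5.89 and 5.40 RPKM (reads scaled to exon length and to the mapped reads of the library) in Nrdc-/-WT, 1.53 and 1.51 RPKM in Nrdc-/- and 27.9 and 28.9 RPKM in Nrdc+/+ iMEF. It thus followed the labels, with the mRNA of the reintroduced gene below its level in Nrdc+/+ iMEF, where the untranslated parts carried by the transgene are not stated. For the protein, the authors report similar amounts in both lines by immunoblotting and immunocytochemistry. Of the 10 fibroblast markers checked, 9 averaged at least 1 RPKM, with summed levels of 6014 to 6044 RPKM in Nrdc-/-WT iMEF, 5257 to 5298 RPKM in Nrdc-/- and 3703 to 4135 RPKM in Nrdc+/+ iMEF, while Thy1 had 0 reads in Nrdc-/- iMEF. Within this list Pdgfra averaged 54.3 RPKM in Nrdc-/-WT iMEF, 53.4 RPKM in Nrdc-/- and 4.70 RPKM in Nrdc+/+ iMEF, and Col3a1 270.4, 266 and 37.1 RPKM in the same order. None of 6 epithelial, 5 endothelial and 4 skeletal muscle markers averaged 1 RPKM over all libraries, but the endothelial marker Kdr had 1 read in Nrdc-/-WT and 0 reads in Nrdc-/- iMEF, against 232 and 187 reads in Nrdc+/+ iMEF (1.57 and 1.24 RPKM). Summed adipocyte markers were 0.457 to 0.818 RPKM in Nrdc-/-WT iMEF, 2.72 to 3.24 RPKM in Nrdc-/- and 7.04 to 8.43 RPKM in Nrdc+/+ iMEF. This sum joins opposite shifts. Pparg averaged 0.429 RPKM in Nrdc-/-WT iMEF, 0 RPKM in Nrdc-/- and 7.05 RPKM in Nrdc+/+ iMEF. Fabp4 averaged 0.195, 2.96 and 0.691 RPKM in the same order. Summed cartilage and bone markers lay between 13.3 and 21.8 RPKM, with opposite shifts within the list: Acan averaged 0.330 RPKM in Nrdc-/-WT iMEF, 0.00393 RPKM in Nrdc-/- and 6.40 RPKM in Nrdc+/+ iMEF, and Col2a1 had 3.86 and 4.14 RPKM in Nrdc-/-WT iMEF, 1.84 and 1.67 RPKM in Nrdc-/- and 0.0407 and 0.0161 RPKM in Nrdc+/+ iMEF. Cd68, 1 of 4 listed macrophage and blood markers, and Tubb3, 1 of 4 neural markers, were the members of their lists with an average of at least 1 RPKM. The part of these differences in the results below was not tested.

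The binding protein mRNA made by the 3 lines differed in kind. Igfbp2 led in Nrdc-/-WT iMEF, Igfbp4 in Nrdc-/- iMEF and Igfbp7 in Nrdc+/+ iMEF, and Igfbp3 was a Nrdc+/+ transcript with at most 1 read in any library of the other lines. Igf1 itself was lowest in Nrdc-/- iMEF, at 9.90% of its level in Nrdc+/+ iMEF. The receptors and Irs1 differed far less, by at most 0.73 on the log2 scale between any pair of lines, against 9.34 for Igfbp2. Of the 10 genes, 9 reached the mean of 0.5 RPKM needed for the test, among 11598 genes tested, and Igfbp5 did not. Igfbp3 reached it through Nrdc+/+ iMEF alone, Igfbp2 through both lines of Nrdc-/- origin and Igf1 through Nrdc-/-WT and Nrdc+/+ iMEF. Counts and sizes over the tested members are therefore a description.

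**Figure D1:**
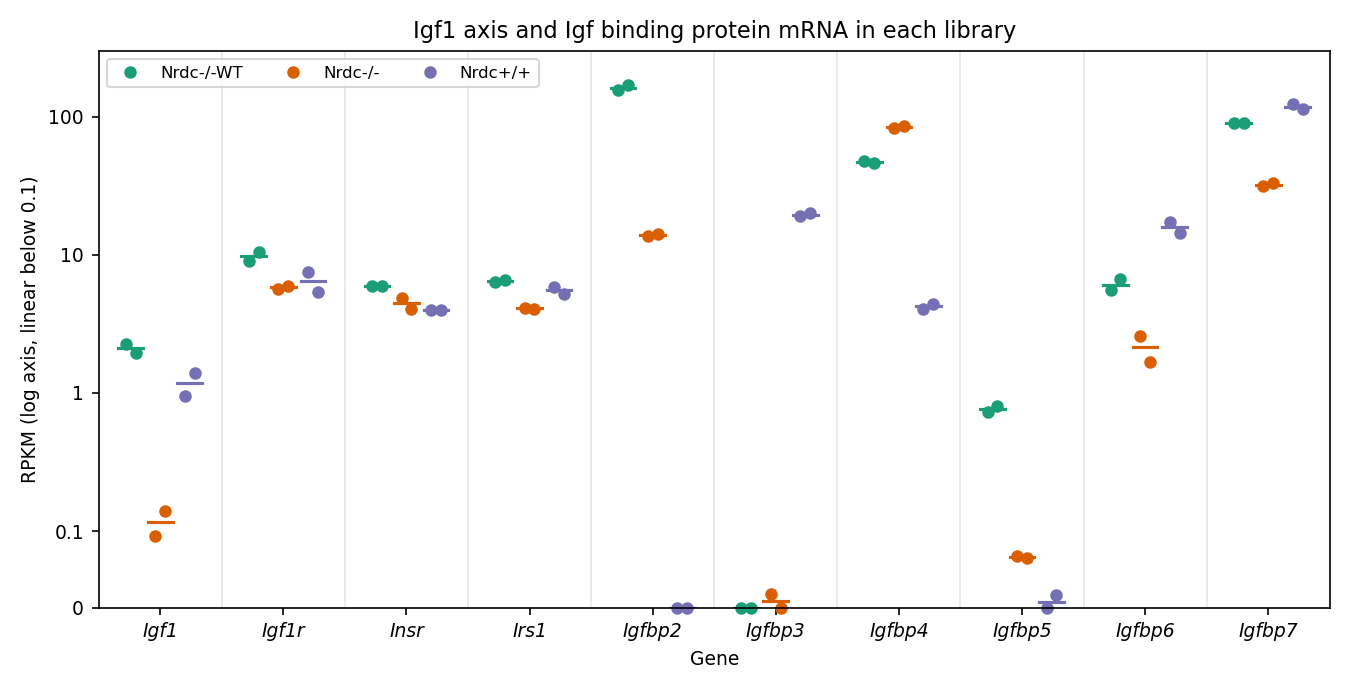
Level of each of the 10 genes in RPKM (log axis, linear below 0.1), with a point per library and a bar at the mean of the 2 libraries of Nrdc-/-WT, Nrdc-/- and Nrdc+/+ iMEF. Igfbp2 was at 0 in both Nrdc+/+ libraries, Igfbp3 was at 19.1 and 19.9 RPKM there and at or near 0 elsewhere, and Igf1r, Insr and Irs1 stayed between 3.97 and 10.5 RPKM in all libraries.

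In Nrdc-/- v.s. Nrdc+/+ iMEF, 2 of the 9 tested members rose and 5 fell in the limma test on log2(RPKM + 0.25), which asked for a fold of 1.3 or more and an adjusted p under 0.05, and 62.1% of all tested genes were called, 32.0% higher and 30.2% lower. In Nrdc-/-WT v.s. Nrdc-/- iMEF, 7 rose and 1 fell, beside 43.2% of all genes called, 20.5% higher and 22.7% lower. In Nrdc-/-WT v.s. Nrdc+/+ iMEF, 5 rose and 3 fell, beside 60.4% of all genes called, 29.9% higher and 30.6% lower. With so many genes called in each comparison, sizes are given beside the counts. Of the 9 members, 6 differed more than 2-fold in Nrdc-/- v.s. Nrdc+/+ iMEF, as 25.1% of all genes did. Their median log2 difference without its sign was 1.94, beside 0.54 over all tested genes. These medians were 0.82 beside 0.34 in Nrdc-/-WT v.s. Nrdc-/- iMEF, and 0.75 beside 0.52 in Nrdc-/-WT v.s. Nrdc+/+ iMEF. Like the counts, these sizes are a description, since Igf1, Igfbp2 and Igfbp3 each reached the test only through lines where they were high. The members were also chosen with earlier results of these data known. The libraries of the compared lines did not overlap for 9, 9 and 10 of the 10 members in these comparisons, which is close to the background of 86.4%, 81.5% and 86.4% of tested genes. The comparisons share libraries, so their values are given side by side for each gene and are not independent of each other.

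**Figure D2:**
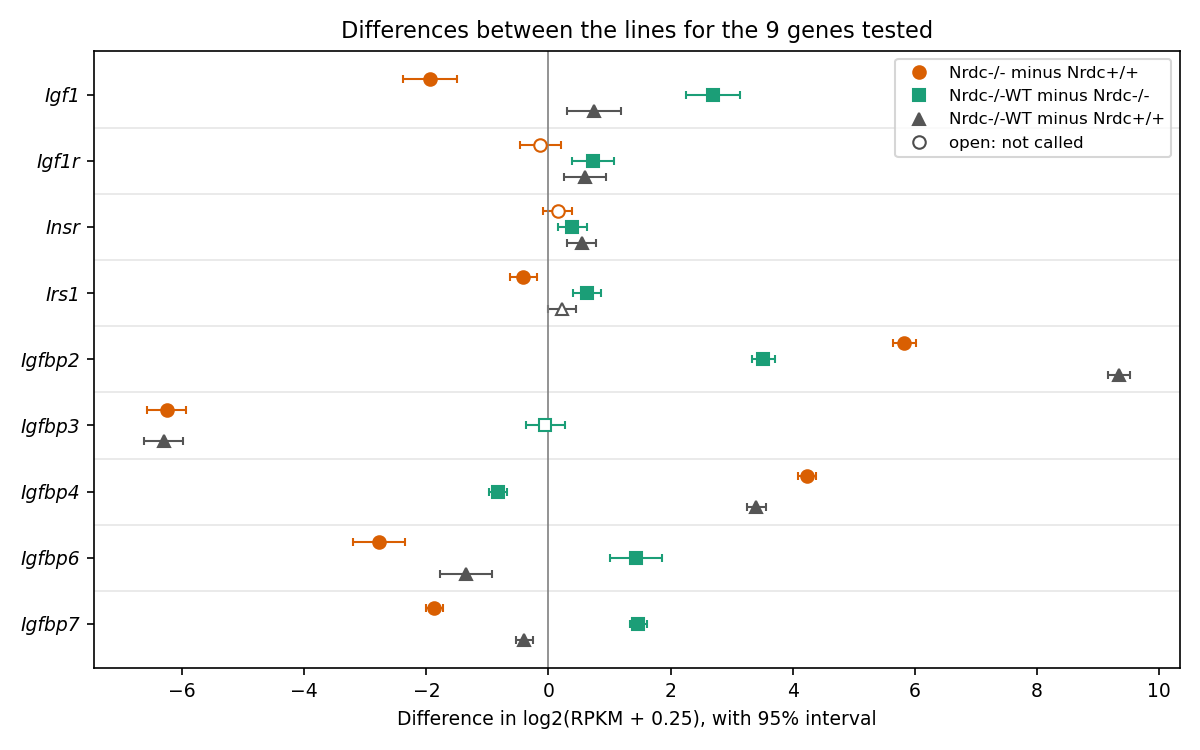
Difference in log2(RPKM + 0.25) between the lines for the 9 tested genes, with 95% intervals from limma (circles, Nrdc-/- minus Nrdc+/+; squares, Nrdc-/-WT minus Nrdc-/-; triangles, Nrdc-/-WT minus Nrdc+/+; open symbols were not called). Igfbp2, Igfbp3 and Igfbp4 reached 9.34, -6.30 and 4.23. The differences of Igf1r, Insr and Irs1 were at most 0.73 in size, but several were called, with intervals that excluded 0.

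Igf1 (ENSMUSG00000020053, chromosome 10 of mm9 from 87321010 to 87399792) had 2.27 and 1.96 RPKM in Nrdc-/-WT iMEF, 0.0932 and 0.139 RPKM in Nrdc-/- and 0.950 and 1.40 RPKM in Nrdc+/+ iMEF. The 3 lines did not overlap, with Nrdc-/-WT highest and Nrdc-/- lowest. Behind these values were 480 and 363 reads in Nrdc-/-WT, 16 and 25 reads in Nrdc-/- and 192 and 286 reads in Nrdc+/+ iMEF. The level in Nrdc-/-WT was 18.2 times that in Nrdc-/- iMEF. On the log2(RPKM + 0.25) scale, which understates changes of weakly expressed genes, Igf1 fell by 1.94 in Nrdc-/- v.s. Nrdc+/+ iMEF (SE 0.19, limma). It rose by 2.69 in Nrdc-/-WT v.s. Nrdc-/- iMEF (SE 0.19, limma). Since Igf1 reached the test only through Nrdc-/-WT and Nrdc+/+ iMEF, no p is given for these differences. With other pseudocounts and fits, they ranged over -3.30 to -0.95 and over 1.48 to 4.18, without a change of sign. Nrdc-/-WT exceeded Nrdc+/+ iMEF by 0.75 (SE 0.19, adjusted p = 0.00726, limma), but without Nrdc-/-WT library 1 the difference was 0.65 with an adjusted p of 0.0552 (limma). Among all genes of the table, Igf1 mRNA was at percentile 55.8 in Nrdc-/-WT, 44.7 in Nrdc-/- and 53.5 in Nrdc+/+ iMEF. These percentiles count the 7431 to 7987 of 22369 genes that had 0 reads in a library, so they stand for weak expression.

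Igf1r, which carries the Igf1 signal into the cell, had 9.09 and 10.5 RPKM in Nrdc-/-WT iMEF, 5.67 and 5.95 RPKM in Nrdc-/- and 7.52 and 5.42 RPKM in Nrdc+/+ iMEF (ENSMUSG00000005533, chromosome 7 of mm9 from 75097713 to 75371484). Both Nrdc-/-WT libraries stood above the other 4, whereas Nrdc-/- and Nrdc+/+ overlapped. The difference in Nrdc-/- v.s. Nrdc+/+ iMEF was -0.13 (95% interval -0.47 to 0.21, adjusted p = 0.441, limma), which does not show that the lines were alike. Igf1r rose by 0.73 in Nrdc-/-WT v.s. Nrdc-/- iMEF (SE 0.15, adjusted p = 0.00329, limma) and by 0.60 in Nrdc-/-WT v.s. Nrdc+/+ iMEF (adjusted p = 0.00634, limma). The call against Nrdc+/+ rested on single libraries: without Nrdc+/+ library 2 the difference was 0.37, under the minimum fold, and without Nrdc-/-WT library 2 it was 0.49 with an adjusted p of 0.0583 (limma).

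Insr (ENSMUSG00000005534, chromosome 8 of mm9 from 3150922 to 3279617) had 5.94 and 5.90 RPKM in Nrdc-/-WT iMEF, 4.84 and 4.08 RPKM in Nrdc-/- and 3.998 and 3.967 RPKM in Nrdc+/+ iMEF. The lines did not overlap, and the second Nrdc-/- library lay just above Nrdc+/+ iMEF. The difference in Nrdc-/- v.s. Nrdc+/+ iMEF was 0.15 (95% interval -0.09 to 0.39, adjusted p = 0.222, limma). Insr rose by 0.54 in Nrdc-/-WT v.s. Nrdc+/+ iMEF (SE 0.10, adjusted p = 0.00168, limma) and by 0.39 in Nrdc-/-WT v.s. Nrdc-/- iMEF (adjusted p = 0.0122, limma). The second call was lost when Nrdc-/- library 2, Nrdc-/-WT library 1 or Nrdc-/-WT library 2 was left out, with differences of 0.28, 0.39 and 0.40 and adjusted p of 0.0766, 0.0649 and 0.0623 (limma).

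Irs1, the adaptor of both receptors, had 6.35 and 6.62 RPKM in Nrdc-/-WT iMEF, 4.11 and 4.08 RPKM in Nrdc-/- and 5.89 and 5.18 RPKM in Nrdc+/+ iMEF (ENSMUSG00000055980, chromosome 1 of mm9 from 82229676 to 82287991). Like Igf1 it was lowest in Nrdc-/- iMEF, with no overlap between lines. It fell by 0.41 in Nrdc-/- v.s. Nrdc+/+ iMEF (SE 0.10, adjusted p = 0.00476, limma), a fold that dropped below 1.3 without Nrdc+/+ library 1 (-0.32). Irs1 rose by 0.63 in Nrdc-/-WT v.s. Nrdc-/- iMEF (SE 0.10, adjusted p = 0.000739, limma). Between Nrdc-/-WT and Nrdc+/+ iMEF the difference of 0.22 was not called (adjusted p = 0.0674, limma). The files do not state strand, and Irs1 shares 2822 of its 9144 annotated exon bases with Gm9747 on the opposite strand, listed at 0 in all 6 libraries.

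Igfbp2, a binding protein abundant in embryonic tissue, had 156 and 169 RPKM in Nrdc-/-WT iMEF, 13.7 and 14.2 RPKM in Nrdc-/- and 0 RPKM in both Nrdc+/+ libraries (ENSMUSG00000039323, chromosome 1 of mm9 from 72871077 to 72899048). These were 6128 and 5825 reads in Nrdc-/-WT and 438 and 474 reads in Nrdc-/- iMEF, against 0 reads in 2 Nrdc+/+ libraries of similar depth, which allows a level of up to 0.0396 RPKM over that line (3 reads, counting error only). Igfbp2 thus ranged over the whole table, from no read in one line to percentile 98.6 of all genes in another. Against that limit the mRNA was at least 352-fold higher in Nrdc-/- and at least 4088-fold higher in Nrdc-/-WT than in Nrdc+/+ iMEF. Between the lines that expressed it, Nrdc-/-WT exceeded Nrdc-/- iMEF by 3.52 on the log2 scale (SE 0.08, adjusted p = 6.00e-08, limma), or 11.7-fold in RPKM. For this gene Nrdc-/-WT iMEF therefore lay farther from Nrdc+/+ iMEF than Nrdc-/- iMEF did.

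Igfbp3, the main carrier of Igf1 in serum, showed the reverse distribution, with 0 RPKM in both Nrdc-/-WT libraries, 0.0185 and 0 RPKM in Nrdc-/- and 19.1 and 19.9 RPKM in Nrdc+/+ iMEF (ENSMUSG00000020427, chromosome 11 of mm9 from 7106089 to 7113926). A single read was found in the 4 libraries of Nrdc-/- origin, whereas the Nrdc+/+ libraries held 1216 and 1289. The level in Nrdc-/-WT was at least 814-fold lower than in Nrdc+/+ iMEF, set against a limit of 0.0240 RPKM from 0 reads. In Nrdc-/- iMEF 1 read stood against 2505 reads in Nrdc+/+ iMEF, a ratio of 2164 for Nrdc+/+ over Nrdc-/- with a counting interval of 388 to 85515 (95%). Since Igfbp3 was tested only because of its level in Nrdc+/+ iMEF, no p is given for these differences. Nrdc-/-WT and Nrdc-/- iMEF were both at or below the limit, so that no fold is given.

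Igfbp4, which binds Igf tightly and is cut by the protease Pappa, had 48.2 and 46.5 RPKM in Nrdc-/-WT iMEF, 82.2 and 85.5 RPKM in Nrdc-/- and 4.08 and 4.40 RPKM in Nrdc+/+ iMEF (ENSMUSG00000017493, chromosome 11 of mm9 from 98902558 to 98915706). Nrdc-/- iMEF were highest and Nrdc+/+ iMEF lowest, without overlap. The mRNA was 19.8 times as abundant in Nrdc-/- as in Nrdc+/+ iMEF (log2 difference 4.23, SE 0.06, adjusted p = 1.23e-09, limma). It fell by 0.82 in Nrdc-/-WT v.s. Nrdc-/- iMEF (SE 0.06, adjusted p = 2.06e-05, limma). Nrdc-/-WT iMEF still held 11.2 times the level of Nrdc+/+ iMEF (log2 difference 3.41, adjusted p = 5.14e-09, limma).

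Igfbp5, a binding protein of matrix and bone whose gene lies 5.46 kb from Igfbp2 on the opposite strand, was low in all lines, with 0.727 and 0.803 RPKM in Nrdc-/-WT iMEF, 0.0674 and 0.0643 RPKM in Nrdc-/- and 0 and 0.0161 RPKM in Nrdc+/+ iMEF (ENSMUSG00000026185, chromosome 1 of mm9 from 72904506 to 72921458). Its order of lines was that of Igfbp2, with no overlap. Reads numbered 93 and 90 in Nrdc-/-WT, 7 and 7 in Nrdc-/- and 0 and 2 in Nrdc+/+ iMEF. In a fit without a filter on low values (17771 genes), Igfbp5 rose by 1.68 in Nrdc-/-WT v.s. Nrdc-/- iMEF (adjusted p = 0.000177, limma) and by 1.98 in Nrdc-/-WT v.s. Nrdc+/+ iMEF (adjusted p = 4.19e-05, limma). In Nrdc-/- v.s. Nrdc+/+ iMEF it was 0.29 higher, under the minimum fold, while the same genes fitted as reads with limma-voom gave a call at 2.95 (adjusted p = 0.00493). The ratio of 14 to 2 reads corresponded to 8.10 with a counting interval of 1.86 to 73.5.

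Igfbp6, a binding protein with preference for Igf2, had 5.53 and 6.65 RPKM in Nrdc-/-WT iMEF, 2.60 and 1.69 RPKM in Nrdc-/- and 17.3 and 14.5 RPKM in Nrdc+/+ iMEF (ENSMUSG00000023046, chromosome 15 of mm9 from 101974793 to 101979942). Nrdc+/+ iMEF were highest and Nrdc-/- iMEF lowest, without overlap. Igfbp6 fell by 2.77 in Nrdc-/- v.s. Nrdc+/+ iMEF (SE 0.19, adjusted p = 2.91e-06, limma). It rose by 1.43 in Nrdc-/-WT v.s. Nrdc-/- iMEF (SE 0.19, adjusted p = 0.000302, limma), and remained 1.35 below Nrdc+/+ iMEF on the log2 scale (log2 difference -1.35, adjusted p = 0.000236, limma).

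Igfbp7, the weak Igf binder, had 89.4 and 90.4 RPKM in Nrdc-/-WT iMEF, 31.3 and 33.2 RPKM in Nrdc-/- and 123 and 114 RPKM in Nrdc+/+ iMEF (ENSMUSG00000036256, chromosome 5 of mm9 from 77778265 to 77837070). The order of lines was that of Igfbp6, again without overlap, and the gene stayed above percentile 91 of the table in every line. Igfbp7 fell by 1.87 in Nrdc-/- v.s. Nrdc+/+ iMEF (SE 0.06, adjusted p = 5.33e-08, limma) and rose by 1.47 in Nrdc-/-WT v.s. Nrdc-/- iMEF (SE 0.06, adjusted p = 8.61e-07, limma). The remaining difference in Nrdc-/-WT v.s. Nrdc+/+ iMEF was -0.40 (adjusted p = 0.000518, limma), which lay near the minimum fold and dropped below it without Nrdc+/+ library 1 (-0.35), with scaling to the median (-0.38) and with quantile normalization (-0.37). Of the 1213 exon bases of Igfbp7, 85 overlap Polr2b on the opposite strand, which had 33.3 RPKM in Nrdc-/-WT iMEF, 29.2 RPKM in Nrdc-/- and 38.7 RPKM in Nrdc+/+ iMEF.

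The sum of Igfbp2 to Igfbp7 showed how these changes combined. It was 299 and 313 RPKM in Nrdc-/-WT iMEF, 129.9 and 135 RPKM in Nrdc-/- and 163 and 153 RPKM in Nrdc+/+ iMEF. In Nrdc-/-WT iMEF, Igfbp2 made up 53.0% ± 1.39 of this sum (SD, n = 2), Igfbp7 29.4% ± 0.716 and Igfbp4 15.5% ± 0.875. In Nrdc-/- iMEF, Igfbp4 made up 63.4% ± 0.155, Igfbp7 24.4% ± 0.415 and Igfbp2 10.5% ± 0.0275 (SD, n = 2). In Nrdc+/+ iMEF, Igfbp7 made up 74.9% ± 0.362, Igfbp3 12.4% ± 0.930, Igfbp6 10.0% ± 0.836 and Igfbp4 2.69% ± 0.260 (SD, n = 2). Each line thus had its own leading binding protein, and the shares of the libraries of a line lay within a few percentage points. RPKM corrects for exon length, and shares of mRNA are not shares of secreted protein. Set against the ligand, the summed binding protein level was 132 and 159.8 times that of Igf1 in Nrdc-/-WT iMEF. It was 1394 and 969 times in Nrdc-/- and 171 and 109.7 times in Nrdc+/+ iMEF. The ratio was highest in Nrdc-/- iMEF and overlapped between the other lines. Both the sum and the ratio count Igfbp7, the weak Igf binder, in full. Without Igfbp7 the sum was higher in Nrdc-/- than in Nrdc+/+ iMEF. The ratios of Nrdc-/-WT and Nrdc+/+ iMEF then did not overlap.

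**Figure D3:**
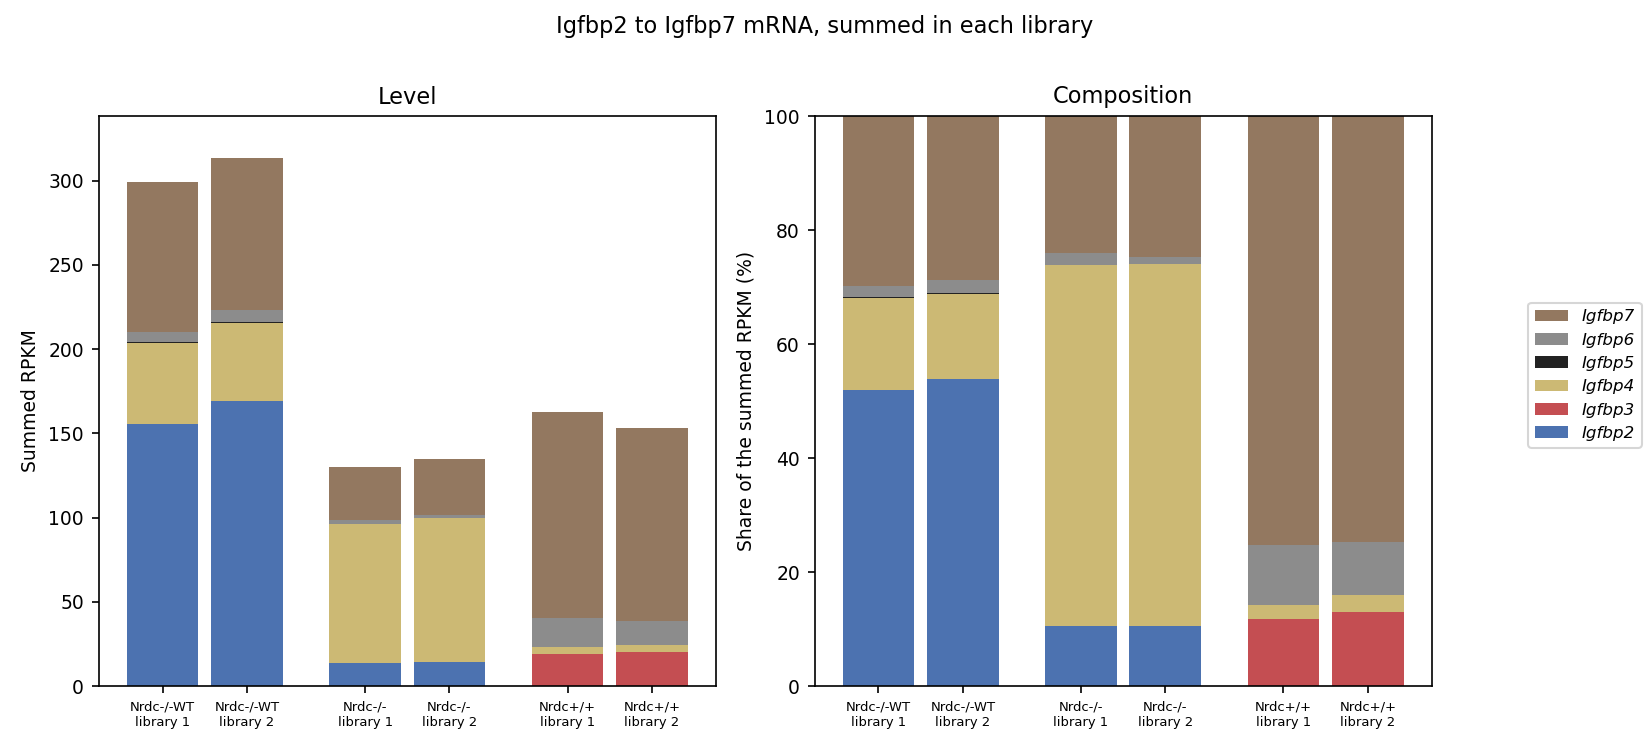
Igfbp2 to Igfbp7 mRNA stacked for each library, as summed RPKM (left) and as a percentage of that sum (right), for Nrdc-/-WT, Nrdc-/- and Nrdc+/+ iMEF. The largest block is Igfbp2 in Nrdc-/-WT (53.0%), Igfbp4 in Nrdc-/- (63.4%) and Igfbp7 in Nrdc+/+ iMEF (74.9%), and Igfbp5 is at most a thin line.

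The promoters of Igf1 and of the binding proteins that led a line or were read in some lines only are shown, since the changes of ligand level and of leading binding protein rest on these transcripts. Windows of 250 bases before the annotated start (RefSeq, GRCm38.p6) were found for 9 of the 10 genes, and capitals mark matches on either strand, overlaps counted, to TATANA (TATA box), GGGCGG (GC box), TGANTCA (AP-1) or CCGGAAG (ETS). For Igfbp2 the more upstream of its 2 annotated starts is given.
Igf1 (chr10:87860861-87861110, plus strand): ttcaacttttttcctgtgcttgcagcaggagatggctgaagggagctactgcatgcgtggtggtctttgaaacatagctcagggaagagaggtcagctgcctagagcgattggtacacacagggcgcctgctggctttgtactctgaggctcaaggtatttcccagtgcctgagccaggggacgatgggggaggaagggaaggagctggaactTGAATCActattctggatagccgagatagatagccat
Igfbp2 (chr1:72824230-72824479, plus strand): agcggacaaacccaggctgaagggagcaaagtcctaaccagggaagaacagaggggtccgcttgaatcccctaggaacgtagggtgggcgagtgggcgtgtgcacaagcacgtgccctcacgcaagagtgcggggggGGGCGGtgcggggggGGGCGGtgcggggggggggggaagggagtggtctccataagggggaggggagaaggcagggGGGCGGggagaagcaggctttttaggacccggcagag
Igfbp3 (chr11:7213924-7214173, minus strand): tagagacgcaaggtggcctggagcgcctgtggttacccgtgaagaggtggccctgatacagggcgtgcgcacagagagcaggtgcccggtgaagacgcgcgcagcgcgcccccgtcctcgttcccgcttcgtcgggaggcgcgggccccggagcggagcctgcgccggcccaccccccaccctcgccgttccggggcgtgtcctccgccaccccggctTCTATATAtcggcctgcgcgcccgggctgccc
Igfbp4 (chr11:99040994-99041243, plus strand): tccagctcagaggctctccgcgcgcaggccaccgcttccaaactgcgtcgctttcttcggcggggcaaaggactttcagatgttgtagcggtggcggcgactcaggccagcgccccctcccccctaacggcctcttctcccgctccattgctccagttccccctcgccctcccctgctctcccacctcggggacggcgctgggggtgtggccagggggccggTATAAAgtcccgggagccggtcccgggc
Igfbp7 (chr5:77408046-77408295, minus strand): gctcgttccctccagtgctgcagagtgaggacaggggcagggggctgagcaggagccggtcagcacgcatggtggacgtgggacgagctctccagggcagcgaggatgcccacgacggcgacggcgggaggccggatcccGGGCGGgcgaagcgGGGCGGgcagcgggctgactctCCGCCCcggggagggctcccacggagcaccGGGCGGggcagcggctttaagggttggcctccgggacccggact
The Igf1 window held 1 AP-1 match and 5 CpG. The Igfbp2 window shown held 3 GC boxes and 14 CpG, while that of its other annotated start held 0 GC boxes, 1 AP-1 match and 11 CpG. Which start these lines used is not known. Igfbp3 and Igfbp4, with 32 and 22 CpG, held TATA box matches close to the start, a pair that overlaps in Igfbp3 and 1 in Igfbp4. Igfbp7 held 4 GC boxes and 26 CpG. Over all 32851 windows, 22.6% held the TATA box letters, 32.7% the GC box, 6.75% the AP-1 and 6.91% the ETS letters, with a median of 6 CpG. These are matches of letters and do not show binding.

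Surrounding genes were compared to see whether the on and off patterns extended along the chromosome. Within 500 kb of Igfbp2 and Igfbp5, 3 other genes were tested. Rpl37a, a ribosomal protein gene, rose by 1.58 in Nrdc-/- v.s. Nrdc+/+ iMEF, Xrcc5, which encodes the Ku80 repair protein, fell by 0.42, and Smarcal1 was not called in any comparison. None of them was off in Nrdc+/+ iMEF. Within 500 kb of Igfbp3 the only other tested gene was Adcy1, which encodes an adenylyl cyclase and had 0.0252 RPKM in Nrdc-/-WT iMEF, 0.0249 RPKM in Nrdc-/- and 3.36 RPKM in Nrdc+/+ iMEF, the distribution of Igfbp3. Adcy1 too was tested only because of its level in Nrdc+/+ iMEF, so it cannot show whether the pattern extends along the chromosome. Igfbp1, whose gene ends 3.54 kb from Igfbp3, had 1 read in all 6 libraries together.

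The most similar profiles were sought among the 7920 tested genes that averaged 5 RPKM or more, by the root mean square difference of centred log2 values over the 6 libraries, which are 3 lines of 2, so that many genes can look alike. The profile of Igfbp3 was closest to those of the Hox transcription factor genes Hoxc8 (0.16) and Hoxc6 (0.28) and the carboxylesterase gene Ces1g (0.17). Hoxc8 had 0.0408 and 0.0932 RPKM in Nrdc-/-WT iMEF, 0.0754 and 0.0960 RPKM in Nrdc-/- and 30.4 and 30.2 RPKM in Nrdc+/+ iMEF. The profile of Igfbp4 was closest to those of Sema3f (0.10), a secreted guidance factor, Eya1 (0.17), a developmental co-activator, and Fbxo2 (0.20), a ubiquitin ligase subunit. Igfbp2 had no equally close match, and the nearest genes reported here were Gbp2 (0.71), an interferon-induced GTPase, and the imprinted gene Peg10 (0.77). No other member came near: the closest to Igfbp2 was Igfbp4 (2.51), to Igfbp3 Igfbp6 (2.09) and to Igfbp4 Igfbp5 (1.63).

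The other genes of the pathway were counted from a list of 70, of which 54 were tested. In Nrdc-/- v.s. Nrdc+/+ iMEF, 14 rose, 21 fell and 19 were not called (64.8% called, beside 62.1% over the whole table). In Nrdc-/-WT v.s. Nrdc-/- iMEF, 10 rose, 11 fell and 33 were not called (38.9% beside 43.2%). In Nrdc-/-WT v.s. Nrdc+/+ iMEF, 16 rose, 21 fell and 17 were not called (68.5% beside 60.4%). The pathway as a whole thus lay near the background, with median log2 differences of -0.03, 0.05 and -0.08. None of the other extracellular partners (Igf2, Ins1, Ins2, Igfbp1, Igfals and Igfbpl1) reached 0.5 RPKM, and Igf2, the second Igf ligand, had at most 4 reads in a library, so that Igf1 was the only Igf mRNA above a few reads.

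The proteases and inhibitors that act on Igf binding proteins held the largest difference of the 54 genes in each comparison, also with Stc2 left out. Of 12 listed, 5 were tested, and Stc2 only because of its level in Nrdc+/+ iMEF. The filter fixed the fall of Stc2 in both lines of Nrdc-/- origin, so Stc2 is not counted here. In Nrdc-/- v.s. Nrdc+/+ iMEF Htra1, Adam12 and Pappa fell and Adam9 was not called (30.2% of all tested genes fell). In Nrdc-/-WT v.s. Nrdc-/- iMEF 2 rose and none fell (20.5% of all rose). In Nrdc-/-WT v.s. Nrdc+/+ iMEF Htra1, Adam12, Pappa and Adam9 fell (30.6% of all fell). The listed genes below the filter ran both ways. Pappa2 had 57 and 70 reads in Nrdc-/-WT iMEF, 114 and 144 reads in Nrdc-/- and 12 and 9 reads in Nrdc+/+ iMEF. Htra3 was also lowest in Nrdc+/+ iMEF, whereas Stc1 and Mmp3 were highest there. These untested genes were named after their values were seen. Htra1, a secreted serine protease, had 7.61 and 8.10 RPKM in Nrdc-/-WT iMEF, 2.63 and 2.30 RPKM in Nrdc-/- and 95.3 and 96.0 RPKM in Nrdc+/+ iMEF. The lines did not overlap, and Htra1 fell by 5.15 in Nrdc-/- v.s. Nrdc+/+ iMEF (adjusted p = 1.51e-09, limma) and rose by 1.58 in Nrdc-/-WT v.s. Nrdc-/- iMEF (adjusted p = 2.32e-06, limma). Adam12, a metalloprotease that cuts Igfbp3 and Igfbp5, had 5.63 and 5.97 RPKM in Nrdc-/-WT iMEF, 0.824 and 0.513 RPKM in Nrdc-/- and 15.7 and 15.4 RPKM in Nrdc+/+ iMEF. It too was lowest in Nrdc-/- iMEF, with log2 differences of -4.13 in Nrdc-/- v.s. Nrdc+/+ and 2.74 in Nrdc-/-WT v.s. Nrdc-/- iMEF. Pappa, the protease of Igfbp4, and its inhibitor Stc2 were chosen after their values were seen. Pappa had 0.899 RPKM in Nrdc-/-WT iMEF, 0.853 RPKM in Nrdc-/- and 3.41 RPKM in Nrdc+/+ iMEF on average, with a log2 difference of -1.73 in Nrdc-/- v.s. Nrdc+/+ iMEF (adjusted p = 1.51e-05, limma). Stc2 had 0 reads in Nrdc-/-WT and 2 reads in Nrdc-/- iMEF, against 462 and 534 reads in Nrdc+/+ iMEF.

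In the remaining receptor and in the genes downstream of the receptors the changes ran both ways. Igf2r, which clears Igf2 from the cell surface, had 7.99 and 7.59 RPKM in Nrdc-/-WT iMEF, 21.2 and 19.7 RPKM in Nrdc-/- and 25.8 and 24.4 RPKM in Nrdc+/+ iMEF. It fell by 1.36 in Nrdc-/-WT v.s. Nrdc-/- iMEF and by 1.66 in Nrdc-/-WT v.s. Nrdc+/+ iMEF (adjusted p = 2.55e-06 and 3.04e-07, limma), whereas the difference of -0.29 in Nrdc-/- v.s. Nrdc+/+ iMEF was under the minimum fold. Of 11 tested adaptors, 4 rose and 4 fell in Nrdc-/- v.s. Nrdc+/+ iMEF (72.7%, beside 62.1% over the table). In Nrdc-/-WT v.s. Nrdc-/- iMEF 3 rose and 2 fell (45.5% beside 43.2%), and in Nrdc-/-WT v.s. Nrdc+/+ iMEF 5 rose and 4 fell (81.8% beside 60.4%). Grb10, an imprinted adaptor that dampens insulin and Igf1 receptor signalling, averaged 169.5 RPKM in Nrdc-/-WT iMEF, 246 RPKM in Nrdc-/- and 45.3 RPKM in Nrdc+/+ iMEF (log2 difference 2.43 in Nrdc-/- v.s. Nrdc+/+ iMEF, adjusted p = 1.37e-08, limma). Gab1, a docking protein, rose by 1.28 in the same comparison, while Sh2b1, an enhancer of receptor signalling, fell by 1.12. In Nrdc-/-WT v.s. Nrdc-/- iMEF, Grb10 fell by 0.54 and Sh2b1 rose by 0.67. The adaptor Irs2, named after its values were seen, averaged 4.22 RPKM in Nrdc-/-WT iMEF, 1.14 RPKM in Nrdc-/- and 8.24 RPKM in Nrdc+/+ iMEF. It fell by 2.61 in Nrdc-/- v.s. Nrdc+/+ iMEF and rose by 1.68 in Nrdc-/-WT v.s. Nrdc-/- iMEF. Both were the largest differences among the tested adaptors.

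Of the 22 genes of PI3K, Akt and mTOR, 6 rose and 7 fell in Nrdc-/- v.s. Nrdc+/+ iMEF (59.1% called, beside 62.1% of all). In Nrdc-/-WT v.s. Nrdc-/- iMEF 3 rose and 4 fell (31.8% beside 43.2%), and in Nrdc-/-WT v.s. Nrdc+/+ iMEF 6 rose and 7 fell (59.1% beside 60.4%). The PI3K regulatory subunit gene Pik3r3 averaged 11.4 RPKM in Nrdc-/-WT iMEF, 17.4 RPKM in Nrdc-/- and 6.27 RPKM in Nrdc+/+ iMEF. Akt2 rose by 1.07 and Mtor fell by 0.90 in Nrdc-/- v.s. Nrdc+/+ iMEF, and Rictor, a subunit of mTOR complex 2, rose by 0.70 in Nrdc-/-WT v.s. Nrdc-/- iMEF. Among 11 negative regulators, 1 rose and 6 fell in Nrdc-/- v.s. Nrdc+/+ iMEF (63.6% called, beside 62.1% of all), with Phlpp1, an Akt phosphatase, at -0.87 and the ubiquitin ligase Nedd4 at -0.76. In Nrdc-/-WT v.s. Nrdc-/- iMEF 2 of them rose and 3 fell (45.5% beside 43.2%), and in Nrdc-/-WT v.s. Nrdc+/+ iMEF 2 rose and 4 fell (54.5% beside 60.4%). Trib3, an Akt-binding pseudokinase, and Ddit4, an mTOR inhibitor induced by stress, fell by 1.78 and 0.90 in Nrdc-/-WT v.s. Nrdc-/- iMEF. The genes that rose there were the cytokine signalling suppressors Socs2 (1.56) and Socs3 (1.25), named after their values were seen. Of the 4 FoxO transcription factors, which insulin and Igf1 signalling keeps out of the nucleus, 3 rose in Nrdc-/- v.s. Nrdc+/+ iMEF and 3 in Nrdc-/-WT v.s. Nrdc+/+ iMEF, beside 32.0% and 29.9% over the whole table. In Nrdc-/-WT v.s. Nrdc-/- iMEF none of the 4 rose and 1 fell, Foxo1 by 0.41. Foxo1 averaged 8.87 RPKM in Nrdc-/-WT iMEF, 11.8 RPKM in Nrdc-/- and 4.10 RPKM in Nrdc+/+ iMEF, with a log2 difference of 1.48 in Nrdc-/- v.s. Nrdc+/+ iMEF (adjusted p = 5.48e-06, limma). Foxo4 rose by 0.38 in that comparison, a fold of 1.302 that lay just above the minimum of 1.3, and by 0.52 in Nrdc-/-WT v.s. Nrdc+/+ iMEF.

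**Figure D4:**
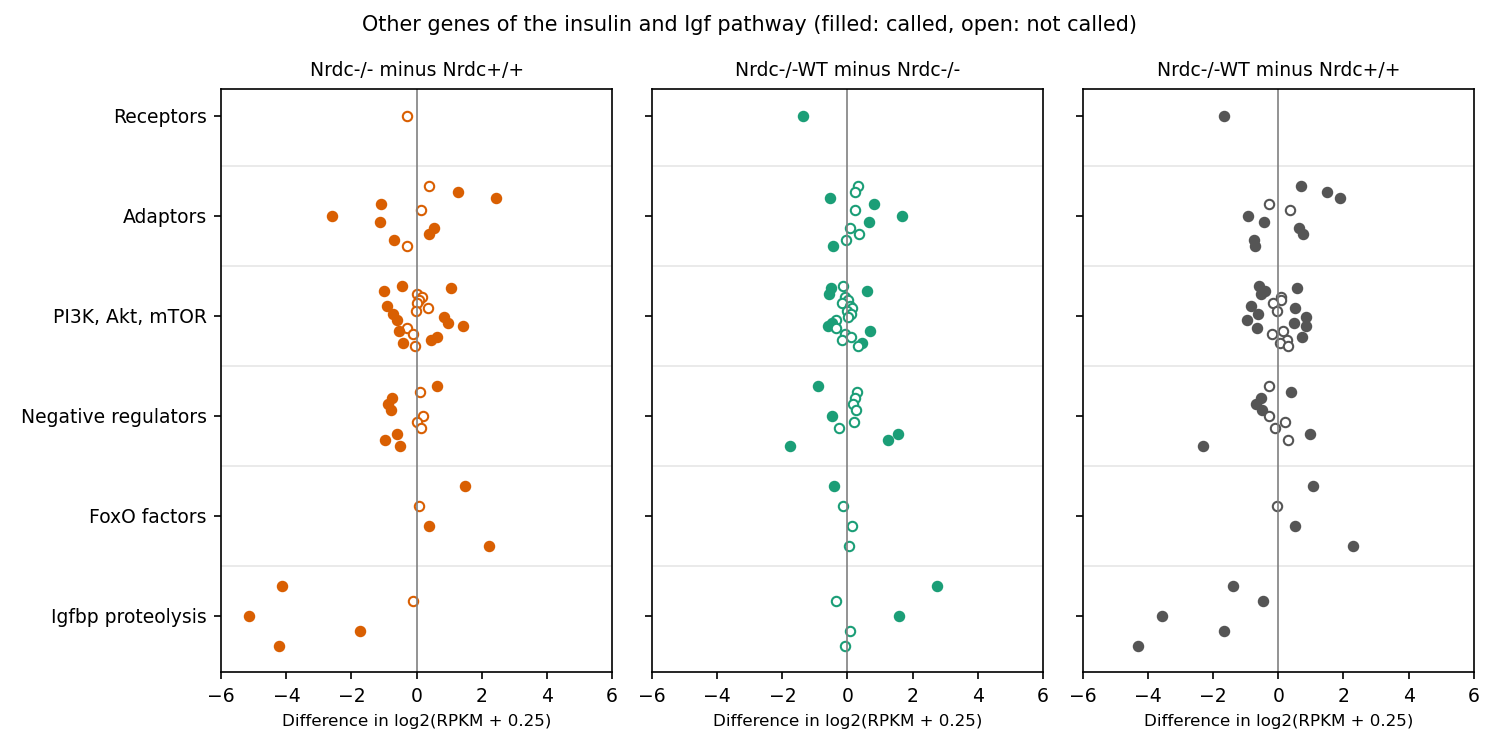
Difference in log2(RPKM + 0.25) for the 54 tested genes of the insulin and Igf pathway other than the members, by role and comparison, with a point per gene (filled, called; open, not called). Points lay on both sides of 0 in each comparison, and the genes of Igf binding protein proteolysis reached -5.15 for Htra1 in Nrdc-/- minus Nrdc+/+.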

How the data were processed

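RNA-seq was analysed in 6 libraries, 2 of each line, grouped by the sample labels. According to the methods, the authors aligned reads to mm9 with STAR and then Bowtie2, used featureCounts and Ensembl protein-coding genes for counting, and turned the counts into RPKM with edgeR. The deposited values are log2 RPKM that include a small added constant. Strand and tool versions were not given in the sources used here. Tests had been planned for RPKM, and log2 is thus another unit than planned. After the constant was taken off, RPKM times gene length came out as whole reads, within 0.05, for 100% of low values tested.

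The 11598 genes that averaged 0.5 RPKM or more were fitted with limma 3.58.1 in R 4.3.3 (lmFit, eBayes with a trend, all 6 libraries, log2(RPKM + 0.25), Benjamini-Hochberg over all tested genes). A call required a fold of 1.3 or more and an adjusted p under 0.05. The code was tested on simulated data. The members and lists were chosen with earlier results of these data known. Pathway genes named are, per role and comparison, the 2 largest called changes among genes that averaged 5 RPKM or more. Similar profiles are the 3 closest genes for each of the 3 members with the widest range, of which 1 is not reported here. Genes named for their position, Pappa, Stc2, Adam9, Socs2, Socs3, Irs2, Foxo3, Foxo6 and the untested Pappa2, Htra3, Stc1 and Mmp3 stand outside this rule. Blank or date-like symbols (66) were restored by gene ID for 35 genes. Coordinates are those of mm9 in the deposited table, and promoters are RefSeq windows on GRCm38.p6. Plots were made in matplotlib 3.10.9 under Python 3.11.15. Alternatives were other pseudocounts, filters, scalings, fold limits, fits, a replicate block and leaving out each library. ChIP-seq was not analysed here.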

Additional observations from a re-analysis of the deposited data

How the results depend on the processing

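Over 18 alternatives for each of 3 comparisons, none turned the direction of a called member, and 465 of 486 values of the log2 differences of the tested members kept their side of the threshold. The 21 that lost a call are those given above for Igf1, Igf1r, Insr, Irs1 and Igfbp7, the pseudocount of 1 (Insr in Nrdc-/-WT v.s. Nrdc-/- and Irs1 in Nrdc-/- v.s. Nrdc+/+ iMEF) and a minimum fold of 2. With that fold, 4 members were called in Nrdc-/-WT v.s. Nrdc-/- and 4 in Nrdc-/-WT v.s. Nrdc+/+ iMEF, in place of 8 each, and 14, 7 and 10 pathway genes in place of 35, 21 and 37 in Nrdc-/- v.s. Nrdc+/+, Nrdc-/-WT v.s. Nrdc-/- and Nrdc-/-WT v.s. Nrdc+/+ iMEF. Leaving out 1 library at a time gave 6 to 7, 7 to 8 and 7 to 8 members and 33 to 36, 19 to 24 and 35 to 38 pathway genes in these comparisons. The fitted size of genes near 0 depended on the pseudocount and the fit: in Nrdc-/- v.s. Nrdc+/+ iMEF Igfbp2 was 3.90 and 7.81 and Igfbp3 -4.34 and -8.10 with a pseudocount of 1 and with one below 0.25, and 10.05 and -10.29 with limma-voom on reads. With the authors' added constant left in, 4 of 18 shares of the summed binding protein level moved beyond the spread between libraries, all of them at or below 0.0564%. Replicate numbers did not pair the libraries (correlations of -0.03, -0.10 and 0.01 between the differences of same-numbered libraries), and a replicate block gave 7, 8 and 8 members and 7218, 5002 and 7022 of all genes called, in place of 7206, 5008 and 7009. Depth limits Igf1 in Nrdc-/- iMEF, Igfbp5 and the genes at 0, whose intervals and limits cover counting error only.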
